A study of Mus musculus with 17 samples.

Results

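A set of 9 genes that mark the resting, or homeostatic, state of microglia was followed in prefrontal cortex from 3 genotypes of mice. Its members are P2ry12, P2ry13, Tmem119, Cx3cr1, Csf1r, Siglech, Gpr34, Selplg and Olfml3. They were taken by name, as an established signature, from the 56953 genes of the deposited table. Earlier results of these data were known when they were chosen. All 9 were among the 23062 genes that passed the filter on low counts.

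Microglia are the resident macrophages of the brain, and in the healthy adult cortex they survey their surroundings with fine processes. In this state they carry a characteristic set of surface receptors for nucleotides, lipids, a chemokine and a growth factor, through which they sense neurons and damage. Around amyloid plaques, dying neurons and other lesions microglia are known to lower many of these genes while they raise genes of lipid handling, lysosomes and antigen presentation. The set is therefore widely read as a measure of how many microglia are in the resting state. In RNA of whole tissue, fewer microglia and less RNA per microglial cell cannot be told apart.

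The mice were 8 months old, shared the B6C3F1/J background and were fed regular chow. WT mice (5 libraries) carried neither alteration. PS19 mice (6 libraries, labelled hTau) were heterozygous for a transgene that encodes human Tau carrying P301S, driven by the Prnp promoter, which is broadly active in neurons and also in other cells. CgA-KO/PS19 mice (6 libraries, labelled CgA-KO/hTau) carried the same transgene and lacked Chga, the gene of chromogranin A, a protein of secretory granules, in all tissues from conception. No library came from mice that lacked Chga without the transgene, so the effect of the deletion could be read only in its presence. The study places the transgene on chromosome 3, which also holds P2ry12, P2ry13 and Olfml3, and the part of that position in any value below was not tested.

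Chga was at 152 to 180 CPM in WT and 162 to 177 CPM in PS19. It had no count in any CgA-KO/PS19 library, which allows at most 0.0487 to 0.239 CPM per library if 3 fragments are taken as the limit. Levels are given as CPM, the count relative to the TMM-adjusted total of its library. The total count per library ran from 8838334 (WT replicate 4) to 227651681. About 3 deposited counts stood for 1 sequenced fragment, so these totals overstate the depth. PS19 replicates 4 to 6 resembled each other more closely than other libraries did. The SD of their log2 ratios over 3761 well counted genes was 0.216 to 0.243, against 0.263 to 0.336 for the other pairs of PS19 libraries. That was still at least 6.67 times the noise of sampling fragments, and they were kept as separate samples. CgA-KO/PS19 replicates 1 and 3 had an SD of 0.255, 6.17 times that noise. The other pairs of that genotype had 0.336 to 0.685, and these replicates were also kept separate. In every genotype replicates 1 to 3 had the Y-linked gene Ddx3y above 1 CPM, and the others had it at or near 0. The study states that it sequenced males and females, with 3 males in each genotype, as many as the libraries with Ddx3y above 1 CPM. The labels name no sex for a library. The mitochondrial share of the counts was 13.8% to 18.2% in CgA-KO/PS19 replicates 1 to 3 and 2.56% to 10.9% in the other 14 libraries. A list of 12 striatal genes was higher in WT than in PS19 for 12 of 12, and in CgA-KO/PS19 than in PS19 for 8 of 12. Its summed level was 1108 to 3197 CPM in WT, 164 to 220 CPM in PS19 and 198 to 1790 CPM in CgA-KO/PS19.

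The homeostatic genes showed no common shift between the genotypes. With edgeR's quasi-likelihood test and Benjamini-Hochberg adjustment over all genes tested, none of the 9 passed an adjusted p of 0.05 between WT and PS19, where 5.90% of all genes did. None passed between CgA-KO/PS19 and PS19, where 9.72% of all genes did. P2ry13 alone passed between CgA-KO/PS19 and WT, where 6.46% of all genes did. At an unadjusted p of 0.05, 1, 4 and 1 of the 9 passed in these comparisons, beside 20.9%, 27.8% and 21.7% of all genes. DESeq2 called 0, 1 and 1 of the members, beside 9.81%, 15.2% and 9.87% of the genes to which it gave an adjusted p. Limma voom called 1, 4 and 1, beside 17.2%, 22.7% and 10.7% of all genes.

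The median log2 fold change over the 9 members was 0.20 for WT against PS19, beside -0.0097 over all genes. It was -0.060 for CgA-KO/PS19 against PS19, beside 0.026 over all genes, and -0.34 for CgA-KO/PS19 against WT, beside 0.0091. In each comparison the members lay on both sides of 0, with 5, 4 and 3 of the 9 above it. The comparisons with PS19 share the PS19 libraries, and those with WT share the WT libraries.

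A looser rule, the one of the study's Methods (more than 0.5 in size on the log2 scale and p below 0.01 before adjustment), took 0 members between WT and PS19, where it took 7.39% of all genes. It took Siglech between CgA-KO/PS19 and PS19, where it took 9.73%, and P2ry13 between CgA-KO/PS19 and WT, where it took 7.75%. The libraries of WT and PS19 did not overlap for P2ry13, as was so for 9.52% of all genes. Those of CgA-KO/PS19 and PS19 overlapped for all 9 members, while 6.63% of all genes did not overlap. Those of CgA-KO/PS19 and WT did not overlap for P2ry13, as for 3.60% of all genes.

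**Figure D1:**
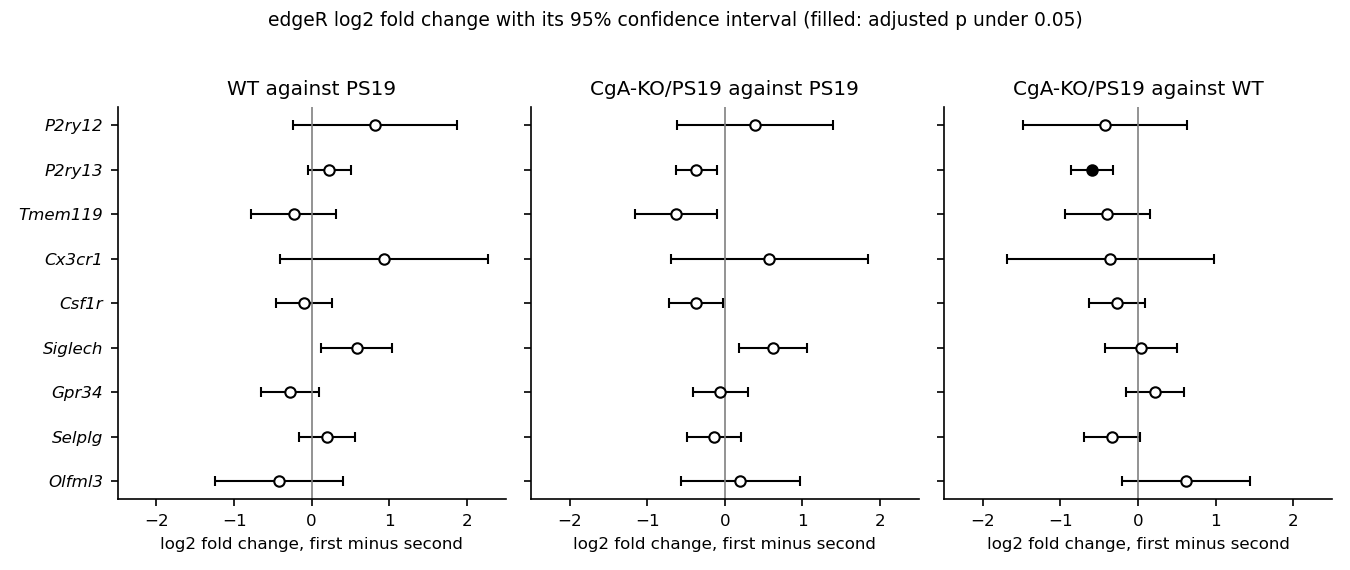
edgeR log2 fold change (x axis, genotype named first minus the second) of each of the 9 members (rows) with its 95% confidence interval, in the 3 comparisons (panels). The filled point has an adjusted p under 0.05, and it is P2ry13 in CgA-KO/PS19 against WT, at -0.59; the widest intervals belong to Cx3cr1 and P2ry12.

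The members differed in how steady they were between libraries of a genotype. The biological coefficient of variation is the spread between libraries of a genotype beyond the counting error of the deposited counts. About 3 counts stood for 1 fragment, so some error of sampling fragments remains in this spread. The coefficient was 0.167 for P2ry13, against 0.251 on the trend of genes at its level. It was 0.698 for Cx3cr1 against 0.260 on the trend, 0.562 for P2ry12 against 0.235, and 0.443 for Olfml3 against 0.271. Cx3cr1 varied more than 91.0% of all genes tested, P2ry12 more than 85.6% and P2ry13 more than 19.9%. Csf1r, Selplg and Gpr34, at 0.210, 0.210 and 0.218, lay under their trends, as did Siglech at 0.263.

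**Figure D2:**
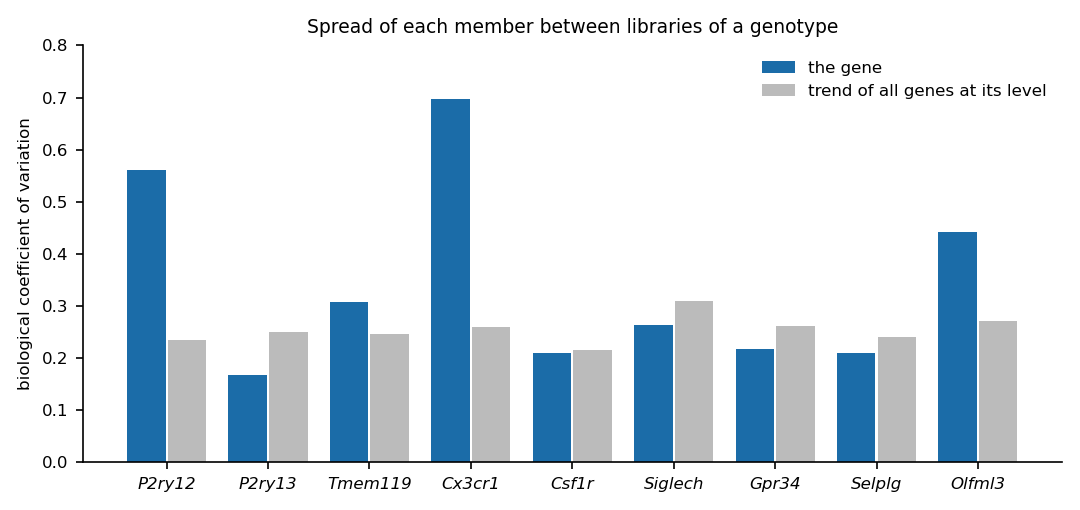
Biological coefficient of variation between libraries of a genotype (y axis) for each member (blue bars) beside the trend of all genes at the same level (grey bars). Cx3cr1 at 0.698, P2ry12 at 0.562 and Olfml3 at 0.443 rise well above their trends, and P2ry13 at 0.167 lies below its own.

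Per kb of exon, the scale on which genes can be set side by side, Csf1r and P2ry12 were the most abundant members, with mean levels of 12.3 and 12.1 CPM per kb over the 17 libraries. The level of P2ry12 was 16.1, 9.05 and 11.8 CPM per kb in WT, PS19 and CgA-KO/PS19, and in PS19 that of Tmem119 was above it, at 9.22. Over all libraries Tmem119 followed at 7.63, then P2ry13 at 5.93, Selplg at 5.53 and Gpr34 at 5.38. Cx3cr1, at 2.61, Olfml3, at 1.52, and Siglech, at 1.35 CPM per kb, were the lowest. Csf1r and P2ry12 did not differ beyond their spread, nor did P2ry13, Selplg and Gpr34 among themselves, nor Olfml3 and Siglech. All 18 genes of a list for the microglial and macrophage lineage were measured. The members' summed level was 137.5 to 236.4 CPM per library, against 6.39 to 24.7 CPM for 10 markers of macrophages of the brain's borders and 2.51 to 6.33 CPM for 10 markers of blood leukocytes.

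The purinergic receptors come first. P2ry12 encodes a receptor for ADP that guides microglial processes to sites of injury, and P2ry13 encodes a related ADP receptor that is known for its role in microglial branching. They are neighbours on the minus strand of chromosome 3. P2ry12 spans chr3:59216272-59262871 and P2ry13 spans chr3:59207892-59210882 in GENCODE M21 (GRCm38, the mm10 assembly to which the reads were mapped). Only 5389 bases lie between them, and both lie inside Med12l, a gene of a Mediator subunit on the opposite strand. The sources used here do not say whether counting used strand. P2ry12 shares 9 exonic bases with Med12l and P2ry13 shares none. Med12l had mean levels of 57.9, 54.7 and 51.9 CPM in WT, PS19 and CgA-KO/PS19, and was not called in any comparison.

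The promoter windows of this pair, and of Siglech, are shown because these are the members with the clearest contrast in behaviour. P2ry13 was the steadiest gene of the set, P2ry12, its neighbour, was among the most variable, and Siglech had a fold change of the opposite sign to that of P2ry13 between CgA-KO/PS19 and PS19. Each window runs from 250 bases before to 50 bases after the RefSeq start in GRCm38.p6 and is written along the gene's strand. It is at chr3:59262936-59263235 (minus strand) for P2ry12, chr3:59210833-59211132 (minus strand) for P2ry13 and chr7:55767934-55768233 (plus strand) for Siglech. Capitals mark GAGGAA, the core bound by PU.1, a transcription factor of the myeloid lineage, or its reverse complement.
P2ry12: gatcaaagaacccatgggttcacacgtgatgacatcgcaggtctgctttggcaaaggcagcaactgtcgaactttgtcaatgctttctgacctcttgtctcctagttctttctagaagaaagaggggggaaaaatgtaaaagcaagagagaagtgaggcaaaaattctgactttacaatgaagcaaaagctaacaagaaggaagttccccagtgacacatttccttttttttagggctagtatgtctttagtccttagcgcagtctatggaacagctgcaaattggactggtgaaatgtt
P2ry13: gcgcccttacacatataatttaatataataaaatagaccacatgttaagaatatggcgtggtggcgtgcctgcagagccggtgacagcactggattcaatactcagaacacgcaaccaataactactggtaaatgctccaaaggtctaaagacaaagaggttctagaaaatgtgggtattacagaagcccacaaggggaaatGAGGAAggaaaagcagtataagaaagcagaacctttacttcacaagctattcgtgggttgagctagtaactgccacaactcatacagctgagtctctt
Siglech: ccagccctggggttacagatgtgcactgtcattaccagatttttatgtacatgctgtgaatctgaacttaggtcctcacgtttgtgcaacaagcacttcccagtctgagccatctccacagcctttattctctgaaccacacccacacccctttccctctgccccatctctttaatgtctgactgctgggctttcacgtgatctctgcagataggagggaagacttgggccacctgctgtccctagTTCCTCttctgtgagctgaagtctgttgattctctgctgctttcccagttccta
P2ry13 held the core on its own strand, beginning 48 bases before the start, and Siglech held it on the opposite strand, beginning 4 bases before the start. P2ry12 held none, and neither did the windows of Cx3cr1 and Olfml3. Windows for 5 of the 9 members were read. The core occurs on either strand in 28.3% of the 32851 windows of all genes, and the longer GAGGAAGT, found in 0 of the 5, in 3.20%. A match describes the letters and is no binding site, and the lack of a match does not show a lack of binding.

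P2ry13 was highest in WT and lowest in CgA-KO/PS19. In WT it was at 18.3, 19.0, 17.3, 18.0 and 18.0 CPM in replicates 1 to 5. In PS19 it was at 12.9, 15.9, 16.4, 15.2, 15.5 and 16.6 CPM in replicates 1 to 6. In CgA-KO/PS19 it was at 13.7, 15.0, 13.5, 8.18, 10.9 and 10.6 CPM. Every WT library lay above every library of the other genotypes, while the PS19 and CgA-KO/PS19 ranges overlapped through PS19 replicate 1. The mean was 18.1 ± 0.606 CPM (SD, n = 5) in WT, 15.4 ± 1.34 CPM (n = 6) in PS19 and 12.0 ± 2.53 CPM (n = 6) in CgA-KO/PS19.

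P2ry13 was 0.662 times as high in CgA-KO/PS19 as in WT, a log2 fold change of -0.59 (SE 0.13, 95% interval -0.87 to -0.32, adjusted p = 0.0116). The adjusted p was 0.00212 with DESeq2 and 0.0846 when only these 2 genotypes entered the fit, which ends the call. Against PS19 it was -0.37 in CgA-KO/PS19 (SE 0.12, adjusted p = 0.0656). That became -0.44 (adjusted p = 0.0499) without CgA-KO/PS19 replicate 2, the library of that genotype with the highest value. Between WT and PS19 it was 0.23 (SE 0.13, adjusted p = 0.329), and -0.095 with the level of the striatum list as a covariate. The comparison with PS19 was called by limma voom (-0.36, adjusted p = 0.0258), with the striatum covariate (-0.52, adjusted p = 0.0308) and with the mitochondrial share as a covariate (-0.82, adjusted p = 0.0128), the last chosen after seeing the data. In the edgeR fit without a covariate, neither pair of neighbours in the order WT, PS19, CgA-KO/PS19 differed beyond the threshold, and the ends of the order did.

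P2ry12 showed no such order. In WT it was at 37.5, 5.63, 18.4, 88.7 and 54.0 CPM, in PS19 at 29.1, 36.9, 14.7, 24.1, 19.1 and 14.4 CPM, and in CgA-KO/PS19 at 18.5, 50.6, 12.6, 20.8, 32.8 and 45.6 CPM. Both the lowest and the highest of the 17 libraries were WT libraries, replicates 2 and 4, which differed 15.8-fold. The mean was 40.9 ± 32.5 CPM (SD, n = 5) in WT, 23.1 ± 8.84 CPM (n = 6) in PS19 and 30.2 ± 15.4 CPM (n = 6) in CgA-KO/PS19. None of its differences passed, with a log2 fold change of 0.81 (SE 0.50, adjusted p = 0.377) for WT against PS19, 0.39 (SE 0.48, adjusted p = 0.635) for CgA-KO/PS19 against PS19 and -0.43 (SE 0.50, adjusted p = 0.681) for CgA-KO/PS19 against WT. No neighbours in the order of the means differed beyond their spread. The ratio of P2ry12 to P2ry13 counts ran from 0.297 in WT replicate 2 to 4.92 in WT replicate 4.

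**Figure D3:**
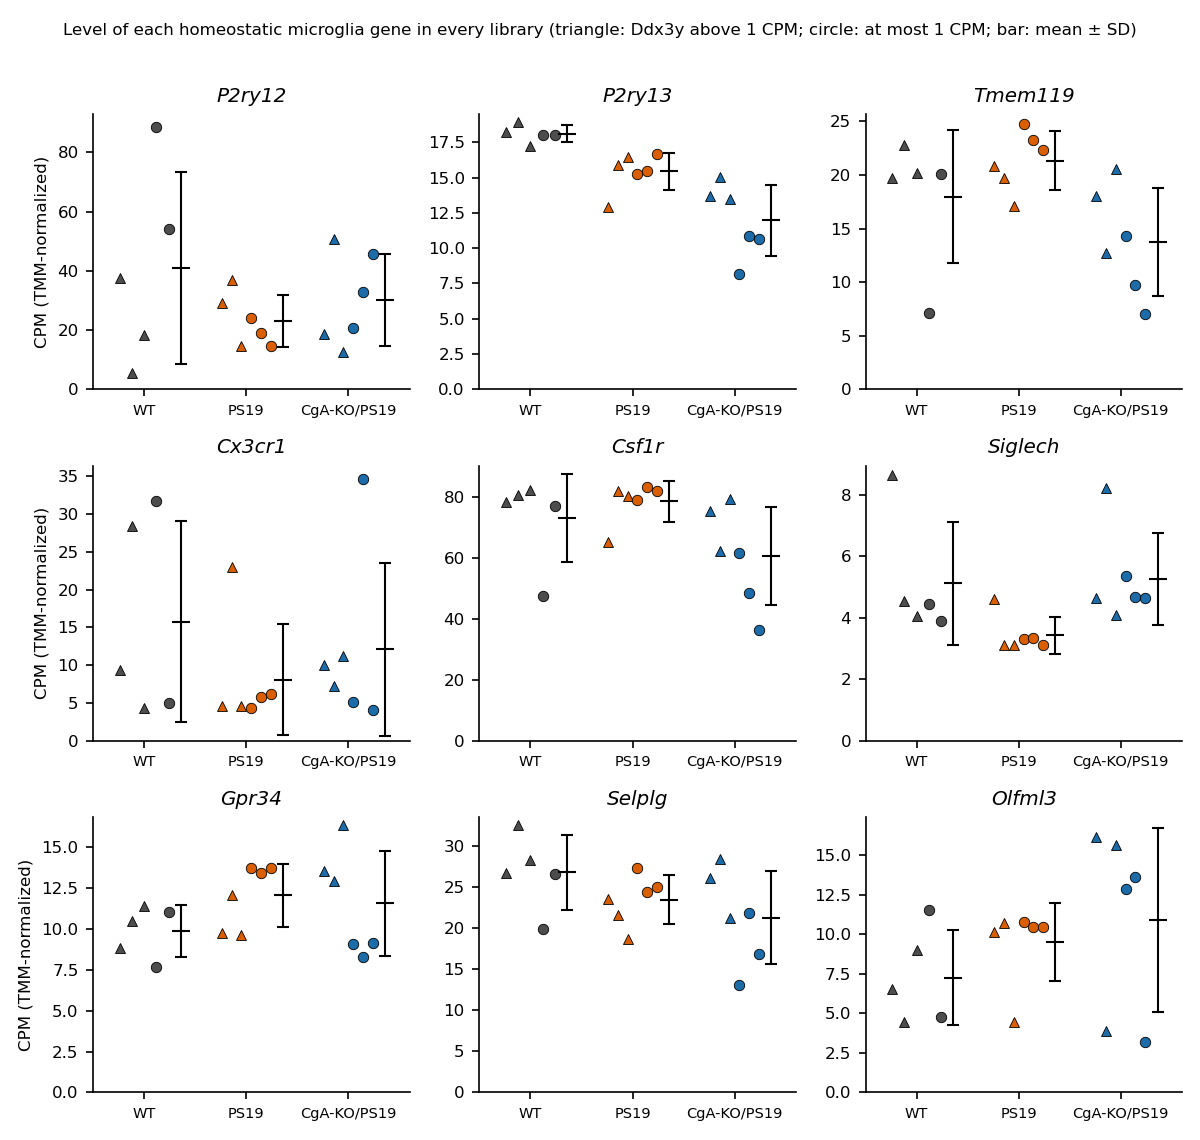
TMM-normalized CPM (y axis, from 0) of each member (panels) in each library of the 3 genotypes (x axis), with the mean ± SD beside each group (n = 5, 6 and 6). Triangles are libraries with Ddx3y above 1 CPM and circles the others. WT libraries of P2ry13 sit between 17.3 and 19.0 CPM, above all others, while P2ry12 and Cx3cr1 spread widely within each genotype.

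Csf1r and Tmem119 varied together from library to library. Csf1r encodes the receptor for CSF1 and IL-34, on which microglia depend for survival. Tmem119 encodes a transmembrane protein that is used to tell microglia from blood-derived macrophages. Csf1r lies on the plus strand of chromosome 18 and shares 873 exonic bases with Hmgxb3 on the opposite strand. Tmem119 (chr5:113793729-113800516, minus strand) has 18019 bases between it and Selplg, the next member along the chromosome. Coro1c, a nearby gene of an actin-binding protein, was not called in any comparison.

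Csf1r was at 78.6, 80.9, 82.3, 47.5 and 77.0 CPM in WT and at 65.2, 82.1, 80.4, 79.0, 83.3 and 82.2 CPM in PS19. In CgA-KO/PS19 it was at 75.4, 62.5, 79.6, 61.6, 48.7 and 36.5 CPM. Most WT and PS19 libraries fell within a narrow band, from which WT replicate 4 and PS19 replicate 1 dropped out, and 4 of the 6 CgA-KO/PS19 libraries lay below every PS19 library. CgA-KO/PS19 differed from PS19 in Csf1r by a log2 fold change of -0.37 (SE 0.17, 95% interval -0.72 to -0.025, adjusted p = 0.152). Limma voom called this difference (-0.37, adjusted p = 0.0386), as did the fit with the striatum covariate (-0.67, adjusted p = 0.0192). No other alternative setting did. The log2 fold change was -0.27 (SE 0.17, adjusted p = 0.392) for CgA-KO/PS19 against WT and -0.10 (SE 0.17, adjusted p = 0.795) for WT against PS19. The latter was -0.72 (adjusted p = 0.0308) with the striatum covariate. Hmgxb3, which shares sequence with it, had a log2 fold change of -0.40 (adjusted p = 0.102) between CgA-KO/PS19 and PS19, and its part in the Csf1r counts was not tested.

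Tmem119 was at 19.7, 22.8, 20.2, 7.07 and 20.1 CPM in WT and at 20.8, 19.7, 17.1, 24.8, 23.3 and 22.3 CPM in PS19. In CgA-KO/PS19 it was at 18.1, 12.7, 20.6, 14.3, 9.70 and 7.02 CPM. The low libraries were those low in Csf1r, namely WT replicate 4 and CgA-KO/PS19 replicates 5 and 6. The mean was 18.0 ± 6.21 CPM (SD, n = 5) in WT, 21.3 ± 2.73 CPM (n = 6) in PS19 and 13.7 ± 5.08 CPM (n = 6) in CgA-KO/PS19.

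The log2 fold change of Tmem119 between CgA-KO/PS19 and PS19 was -0.63 (SE 0.25, adjusted p = 0.111). The adjusted p was 0.0390 without WT replicate 4, which belongs to neither genotype compared, and 0.0190 with limma voom. With the striatum covariate the log2 fold change was -1.05 (adjusted p = 0.0232). With WT replicate 4 and CgA-KO/PS19 replicates 5 and 6 all left out, a choice made after their values were seen, it was -0.38 (adjusted p = 0.0545). Over all libraries it was -0.40 (adjusted p = 0.412) for CgA-KO/PS19 against WT and -0.23 (adjusted p = 0.659) for WT against PS19. The latter was -1.09 (adjusted p = 0.0435) with the striatum covariate. In the edgeR fit without a covariate, neighbours in the order PS19, WT, CgA-KO/PS19 did not differ beyond the threshold, for Tmem119 as for Csf1r. WT replicate 4 was the shallowest library, and CgA-KO/PS19 replicates 5 and 6 had the highest mitochondrial shares, 6.63% and 10.9%, of the libraries with Ddx3y at most 1 CPM in that genotype. Replicates 1 and 3 of that genotype had higher shares still, 15.3% and 13.8%, beside its highest levels of both genes. Replicate 2 had the highest share, 18.2%, with Tmem119 at 12.7 CPM and Csf1r at 62.5 CPM. Replicate 4 had the lowest share of that genotype, 3.84%, with 14.3 and 61.6 CPM. The part of depth or of the mitochondrial share in the low values was not tested.

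Over the 17 libraries the Pearson correlation of Tmem119 with Csf1r, on log2(CPM + 1), was 0.94, and the Spearman correlation was 0.757. The Pearson correlation was 0.87 over the 15 libraries left without WT replicate 4 and CgA-KO/PS19 replicate 6. CgA-KO/PS19 replicate 5, also low in both genes, was among these 15. The ratio of Csf1r to Tmem119 counts stayed between 3.13 and 6.71, a 2.14-fold range, against a 16.6-fold range for P2ry12 over P2ry13. P2ry12 and P2ry13, although neighbours and products of related genes, had a Pearson correlation of -0.045. These values describe libraries that share depth, dissection and scaling.

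**Figure D4:**
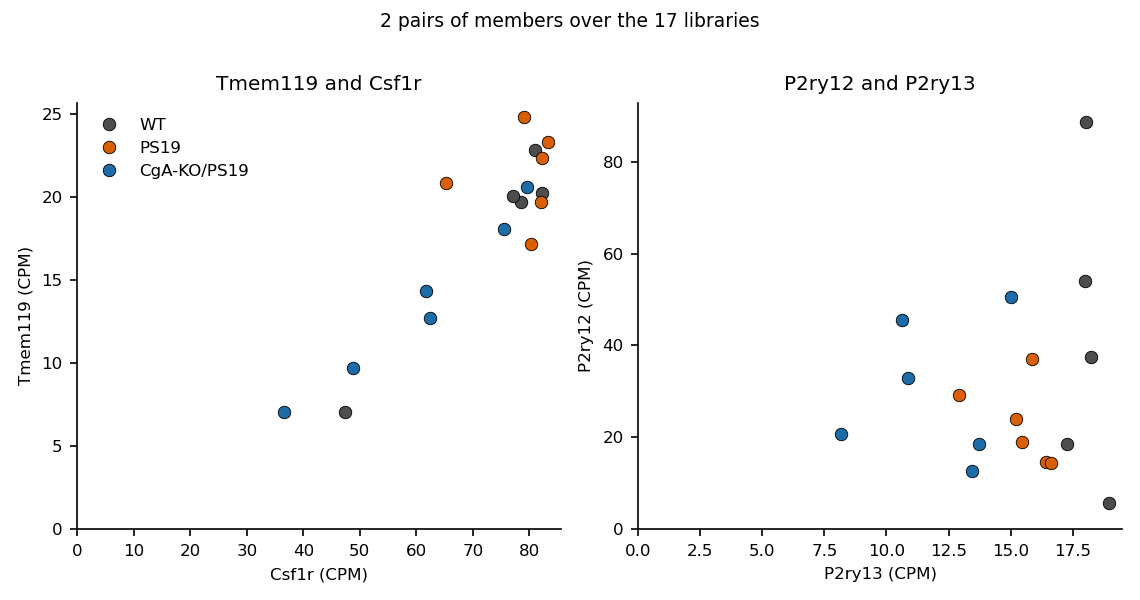
CPM of Tmem119 against Csf1r (left panel) and of P2ry12 against P2ry13 (right panel) in each of the 17 libraries, coloured by genotype. Tmem119 and Csf1r rise together (r = 0.94 on log2(CPM + 1)), and P2ry12 and P2ry13 do not (r = -0.045).

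Cx3cr1 encodes the receptor for fractalkine, a chemokine that neurons display on their surface. It was at 9.37, 28.5, 4.36, 31.7 and 4.97 CPM in WT, at 4.66, 23.0, 4.60, 4.36, 5.85 and 6.17 CPM in PS19, and at 10.0, 7.29, 11.3, 5.17, 34.7 and 4.10 CPM in CgA-KO/PS19. In each genotype 1 or 2 libraries stood far above the rest, which were WT replicates 2 and 4, PS19 replicate 2 and CgA-KO/PS19 replicate 5. With such libraries on each side, the log2 fold change was 0.93 (SE 0.64, adjusted p = 0.431) for WT against PS19, 0.58 (SE 0.60, adjusted p = 0.567) for CgA-KO/PS19 against PS19 and -0.36 (SE 0.64, adjusted p = 0.804) for CgA-KO/PS19 against WT. The second of these was -0.094 without CgA-KO/PS19 replicate 5. The annotation gives the gene 168264 bases, chr9:119901616-120069879 on the minus strand, because of a long transcript that spans Csrnp1, Gorasp1, Ttc21a, Wdr48 and Xirp1. It shares no exonic base with these 5 genes, and 78 exonic bases with Gm33858, an antisense RNA gene that did not pass the filter (0 to 123 counts per library). None of the 5 was called in any comparison, and Wdr48, the most abundant of them in counts, had a mean of 81.0 to 90.5 CPM by genotype.

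Gpr34 encodes a receptor for lysophosphatidylserine, a lipid released by stressed cells. It was at 8.82, 10.5, 11.4, 7.64 and 11.0 CPM in WT and at 9.76, 12.1, 9.61, 13.7, 13.4 and 13.8 CPM in PS19. In CgA-KO/PS19 it was at 13.5, 12.9, 16.4, 9.10, 8.28 and 9.12 CPM. Within CgA-KO/PS19, replicates 1 to 3 lay above replicates 4 to 6 with no overlap, and within PS19 replicates 4 to 6 lay above the rest. The log2 fold changes were small over all libraries in the fit without a covariate. They were -0.28 (SE 0.18, adjusted p = 0.403) for WT against PS19, -0.060 (SE 0.17, adjusted p = 0.854) for CgA-KO/PS19 against PS19 and 0.22 (SE 0.18, adjusted p = 0.532) for CgA-KO/PS19 against WT. With the striatum covariate the first was -0.99 (adjusted p = 0.00552), the second -0.41 (adjusted p = 0.0826) and the third 0.59 (adjusted p = 0.0115). With the neuron covariate the first was -0.66 (adjusted p = 0.0469). The gene (chrX:13632089-13640858, plus strand) lies within Cask on the opposite strand and shares no exonic base with it.

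Selplg encodes PSGL-1, a ligand of P-selectin that leukocytes use in rolling and that microglia also carry. It was at 26.6, 32.5, 28.2, 19.9 and 26.6 CPM in WT, at 23.5, 21.6, 18.6, 27.3, 24.4 and 25.0 CPM in PS19, and at 26.1, 28.3, 21.2, 13.1, 21.8 and 16.8 CPM in CgA-KO/PS19. The 3 genotypes overlapped. The mean was 26.8 ± 4.54 CPM (SD, n = 5) in WT, 23.4 ± 2.99 CPM (n = 6) in PS19 and 21.2 ± 5.65 CPM (n = 6) in CgA-KO/PS19, and neither the neighbours nor the ends of this order differed beyond the threshold. The log2 fold change of CgA-KO/PS19 against WT was -0.34 (SE 0.17, adjusted p = 0.263).

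Siglech encodes a sialic acid-binding receptor that marks microglia in the brain and plasmacytoid dendritic cells outside it. It was lowest in PS19, at 4.63, 3.11, 3.11, 3.30, 3.33 and 3.12 CPM. In WT it was at 8.65, 4.53, 4.05, 4.45 and 3.89 CPM, and in CgA-KO/PS19 at 4.64, 8.21, 4.08, 5.36, 4.68 and 4.65 CPM. Apart from PS19 replicate 1, every PS19 library lay below every library of the other genotypes. The mean was 3.43 ± 0.594 CPM (SD, n = 6) in PS19, 5.11 ± 1.99 CPM (n = 5) in WT and 5.27 ± 1.50 CPM (n = 6) in CgA-KO/PS19.

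Siglech was 1.54 times as high in CgA-KO/PS19 as in PS19, a log2 fold change of 0.62 (SE 0.21, 95% interval 0.18 to 1.06, unadjusted p = 0.00837, adjusted p = 0.0662). It passed the Methods rule but not the adjusted threshold. DESeq2 gave an adjusted p of 0.0225 and limma voom 0.0137. It was 0.0382 with at least 10 counts in every library and 0.0342 with only the 2 genotypes compared. Leaving out WT replicate 4 and CgA-KO/PS19 replicates 5 and 6 together gave 0.0477. Leaving out WT replicate 1, the highest WT library and of neither genotype compared, gave 0.0303. Every other setting without a single library left out missed the threshold. There the adjusted p ran from 0.0543 (DESeq2 size factors) to 0.797 (mitochondrial covariate), with 0.117 for the neuron covariate. For WT against PS19 the log2 fold change was 0.58 (SE 0.22, adjusted p = 0.136). WT and CgA-KO/PS19 differed by 0.043 (95% interval -0.42 to 0.51, adjusted p = 0.943). Its mean level over the 17 libraries, 4.58 CPM, was the lowest of the 9 members before division by length. The gene (chr7:55768178-55778925, plus strand) overlaps no other annotated gene.

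Olfml3 encodes a secreted olfactomedin-like protein that microglia make under TGF-beta. It was at 6.57, 4.47, 8.98, 11.5 and 4.76 CPM in WT, at 10.1, 10.7, 4.46, 10.8, 10.5 and 10.5 CPM in PS19, and at 16.1, 3.91, 15.7, 12.9, 13.6 and 3.18 CPM in CgA-KO/PS19. Its libraries fell into high and low values within a genotype, with PS19 replicate 3 and CgA-KO/PS19 replicates 2 and 6 low. Its log2 fold change was -0.42 (SE 0.39, adjusted p = 0.588) for WT against PS19, 0.20 (SE 0.36, adjusted p = 0.761) for CgA-KO/PS19 against PS19 and 0.62 (SE 0.39, adjusted p = 0.394) for CgA-KO/PS19 against WT. No neighbours in the order of the means differed beyond their spread.

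**Figure D5:**
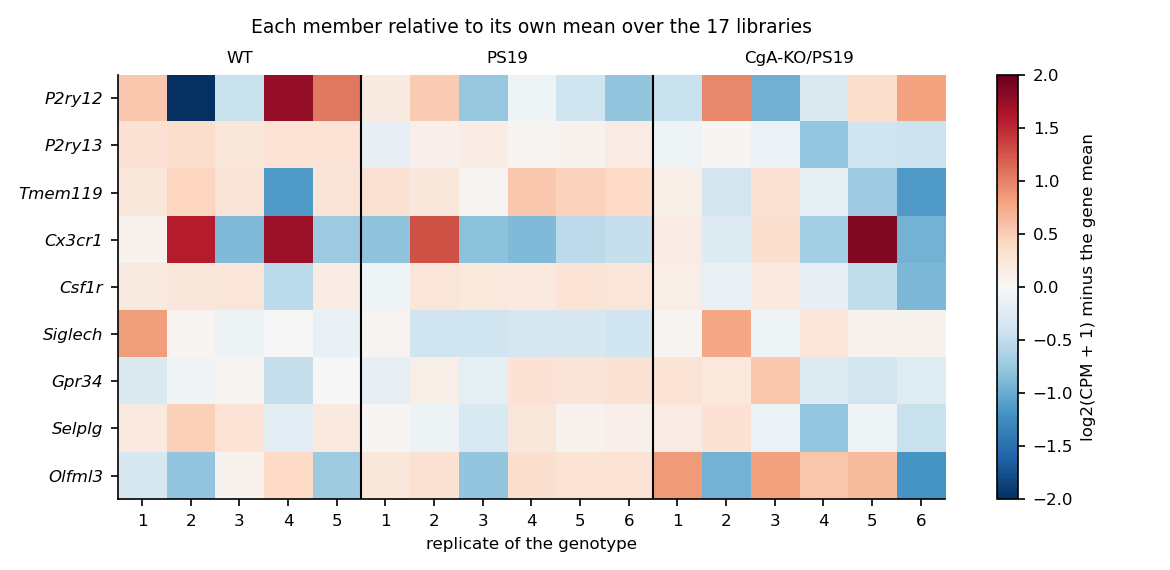
log2(CPM + 1) of each member (rows) in each library (columns, by genotype and replicate number), with the mean of that gene over the 17 libraries subtracted. Red is above the gene's mean and blue below it. Tmem119 and Csf1r are both bluest in WT replicate 4 and CgA-KO/PS19 replicates 5 and 6, and Cx3cr1 is reddest in WT replicates 2 and 4, PS19 replicate 2 and CgA-KO/PS19 replicate 5.

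Within CgA-KO/PS19, 4 of the members differed between the libraries with Ddx3y above 1 CPM (replicates 1 to 3) and the others (replicates 4 to 6). P2ry13, Csf1r, Gpr34 and Selplg were higher in the former, by 0.51 (adjusted p = 0.0126), 0.56 (adjusted p = 0.0462), 0.69 (adjusted p = 0.00659) and 0.55 (adjusted p = 0.0439) on the log2 scale, where 19.1% of all genes were called. Tmem119 differed by 0.72 (adjusted p = 0.109). No member was called between the same sets of replicates within WT or within PS19, where 0.130% and 0.0520% of all genes were called. The CgA-KO/PS19 sets also differed in the mitochondrial share, which was 13.8% to 18.2% against 3.84% to 10.9%. Prnp, whose promoter drives the transgene, was at 1236 to 1348 CPM against 1676 to 2079 CPM, beside 1974 to 2368 CPM in PS19 and 748 to 915 CPM in WT. The striatum list summed to 424 to 1790 CPM against 198 to 225 CPM. These quantities cannot be told apart here, and the part of each in the values of the members was not tested.

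The comparison of CgA-KO/PS19 with PS19 accordingly depended on the set for Gpr34 and Selplg. The log2 fold change of Gpr34 was 0.45 (adjusted p = 0.0449) in the libraries with Ddx3y above 1 CPM and -0.63 (adjusted p = 0.0547) in the others, a difference of 1.07 (adjusted p = 0.00659). That of Selplg was 0.25 and -0.57, a difference of 0.82 (adjusted p = 0.0486). For P2ry13 it was -0.10 and -0.68 (adjusted p = 0.592 and 0.0152), and the difference missed the threshold (adjusted p = 0.0506). The interaction was called for 11.7% of all genes. Gpr34 was the only member called in the first set, where 25.0% of all genes were, and P2ry13 the only member in the second, where 1.72% were.

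Against WT, P2ry13 was lower in CgA-KO/PS19 by 0.37 on the log2 scale in the libraries with Ddx3y above 1 CPM (adjusted p = 0.0594) and by 0.87 in the others (adjusted p = 0.00343). The members called were Gpr34 in the first set (log2 fold change 0.48, adjusted p = 0.0459), where 16.5% of all genes were called, and P2ry13 in the second, where 5.45% were. The second set holds WT replicates 4 and 5 only. The difference in P2ry13 between CgA-KO/PS19 and WT thus had the same direction in both sets and passed the threshold in the set without Ddx3y.

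Across the 36 pairs of members, the correlation over 17 libraries was above 0.5 for 7 pairs and below 0 for 16, with a median of 0.083. Apart from Tmem119 with Csf1r, the highest were P2ry13 with Selplg at 0.72, which was 0.32 without CgA-KO/PS19 replicates 4 and 6, and Tmem119 with Gpr34 at 0.63. P2ry12 ran against Csf1r (-0.57) and Tmem119 (-0.61), the latter -0.38 without WT replicate 4 and CgA-KO/PS19 replicate 6. With the mean of the other 8 members, Selplg had the highest correlation, 0.66, and P2ry12 the lowest, -0.40. Outside the set, the genes whose levels most resembled the mean of the members were G630022F23Rik (0.83), Pxmp4 (0.80) and Slc26a6 (0.80). The 10 nearest genes, which lay between 0.79 and 0.83, also included Parvg, an actin-linked adhesion protein of blood cells.

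Among 12 other genes of the resting signature, Slc2a5 and Fcrls were called in comparisons of CgA-KO/PS19, in opposite directions. Slc2a5, a fructose transporter, was 0.564 times as high in CgA-KO/PS19 as in PS19 (adjusted p = 0.0135) and 0.558 times as high as in WT (adjusted p = 0.0166). Fcrls, an Fc receptor-like protein, was 1.68 times as high in CgA-KO/PS19 as in WT (adjusted p = 0.0460). The median log2 fold change of these 12 was -0.19, 0.0027 and 0.16 in the 3 comparisons, beside 0.20, -0.060 and -0.34 for the 9 members.

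Lineage genes that microglia carry in any state were mostly not called either. Of 18, none was called between WT and PS19. Fcgr3, an activating Fc receptor, was 1.64 times as high in CgA-KO/PS19 as in PS19 (adjusted p = 0.0149) and 1.78 times as high as in WT (adjusted p = 0.00990). Fcer1g, its signalling chain, was 1.59 times as high in CgA-KO/PS19 as in WT (adjusted p = 0.0285).

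Of 19 tested genes of the disease-associated state, Lpl and Timp2 were higher in WT than in PS19, by 2.56-fold and 1.62-fold (adjusted p = 0.000496 and 0.0167). They were the only ones called there, where 5.90% of all genes were. The median log2 fold change of the list had the opposite sign, at -0.235. It was 0.128 for CgA-KO/PS19 against PS19 and 0.315 for CgA-KO/PS19 against WT. In CgA-KO/PS19, Lpl, a lipase, was 1.87 times its PS19 level (adjusted p = 0.00715) and Ctsb, a lysosomal protease, 0.711 times (adjusted p = 0.0215). Relative to WT, Lyz2, a lysozyme of phagocytes, was 2.43 times as high there (adjusted p = 0.00799) and Timp2 0.630 times as high (adjusted p = 0.0214). Lpl and Timp2 are also expressed outside microglia.

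Ligands and partners of the member receptors were nearly all without a call. Of 12 tested, Nt5e, the ectoenzyme that makes adenosine from AMP, was 2.66 times as high in WT as in PS19 (adjusted p = 0.0105), and none was called in the comparisons of CgA-KO/PS19. Csf1, a ligand of the Csf1r product, had a log2 fold change of -0.34 (adjusted p = 0.105) between CgA-KO/PS19 and PS19. None of 10 markers of border macrophages was called in any comparison. Their median log2 fold change was -0.88 for WT against PS19, beside 0.20 for the members, and -0.38 and 0.41 for CgA-KO/PS19 against PS19 and against WT. Mrc1, a mannose receptor, was at 0.471 times its PS19 level in WT (unadjusted p = 0.00637, adjusted p = 0.0782), which met the Methods rule. Of 5 tested blood leukocyte markers, Ly6c2 alone was called. In CgA-KO/PS19 it was at 0.441 times its PS19 level (adjusted p = 0.00544) and 0.552 times its WT level (adjusted p = 0.0342). The median log2 fold change of the 5 had the opposite sign between CgA-KO/PS19 and PS19, at 1.34. S100a9, with that value, averaged only 0.406 CPM in CgA-KO/PS19 and 0.158 CPM in PS19.

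Among the other cell types, no endothelial or mural marker and no red blood cell gene was called. Between WT and PS19, 2 of 10 astrocyte markers were lower in WT. Between CgA-KO/PS19 and PS19, 2 of 10 astrocyte and 2 of 10 oligodendrocyte markers were higher and 2 of 10 neuronal markers lower. Between CgA-KO/PS19 and WT, 1 astrocyte and 2 oligodendrocyte markers were higher and 1 neuronal marker was lower. The part of these in the levels of the members was not tested.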

How the data were processed

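Poly(A) RNA of prefrontal cortex was sequenced in 17 libraries. The authors trimmed reads (Trimmomatic 0.39), mapped them to mm10 (STAR 2.7.10b), quantified genes (StringTie 1.3.6) and used prepDE to make the table they deposited, which holds raw whole-number counts. Low counts peaked at 3 and 6, so that about 3 stand for 1 fragment, and the limit for a count of 0 was set at 3 fragments. It covers counting error only. Annotation release and strand are not given in the sources used here.

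Samples were grouped by labelled genotype. Counts were fitted with edgeR 4.0.16 (R 4.3.3): TMM, filterByExpr by genotype, a quasi-likelihood model of the 17 libraries with a mean for each genotype, and Benjamini-Hochberg adjustment over 23062 genes. The study counts its replicates as biological, though the labels name no mouse or sex for a library, so p-values measure the spread between libraries. Levels are CPM, and per kb of merged GENCODE M21 exons where genes are compared. Correlations used log2(CPM + 1).

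The members, lists and tests were chosen with earlier results of these data known. All 9 members are named, with the tested genes overlapping them, up to 4 genes per list with the smallest p-values, and the 10 genes most like the members' mean. Values of some genes on the lists are left out. Of 56953 identifiers, 52029 matched GENCODE M21 without version, including all members. Promoter sequences are from RefSeq (GRCm38.p6).

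Alternatives were DESeq2 1.42.0 and limma 3.58.1 voom, other scaling and filters, fits on 2 genotypes, covariates (Ddx3y, striatum and neuron lists), a replicate block, fits within sets of libraries, nearest libraries summed (PS19 replicates 4 to 6, CgA-KO/PS19 replicates 1 and 3), and each library left out. Leaving out mitochondrial genes, the mitochondrial share as a covariate and leaving out 3 libraries with low Tmem119 together were chosen after seeing the data. The fit was tested on simulated data. Figures were made with Python 3.11.15 and matplotlib 3.10.9.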

Additional observations from a re-analysis of the deposited data

Results flagged for a closer look

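In 9 of the 27 groups of a member and a genotype, the highest or lowest library stood apart by a gap that exceeds Dixon's 95% critical value. Independent, normally distributed values would give that in about 1 group in 20. The groups share libraries, and PS19 replicates 4 to 6 resembled each other closely, so the count cannot be set against that rate. WT replicate 4 was lowest for both Tmem119 (7.07 CPM, the next 19.7) and Csf1r (47.4 CPM, the next 77.0). PS19 replicate 1 was lowest for Csf1r (65.2 CPM, the next 79.0), and PS19 replicate 3 lowest for Olfml3 (4.46 CPM, the next 10.1). Cx3cr1 was highest in PS19 replicate 2 (23.0 CPM, the next 6.17) and in CgA-KO/PS19 replicate 5 (34.7 CPM, the next 11.3). Siglech was highest in WT replicate 1 (8.65 CPM, the next 4.53), PS19 replicate 1 (4.63 CPM, the next 3.33) and CgA-KO/PS19 replicate 2 (8.21 CPM, the next 5.36). What sets these libraries apart for these genes was not tested.

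The log2 fold change of CgA-KO/PS19 against PS19 differed between the libraries with Ddx3y above 1 CPM and the others by 1.07 for Gpr34 and by 0.82 for Selplg, both by edgeR's interaction test (adjusted p = 0.00659 and 0.0486). Ddx3y, the mitochondrial share and the level of the striatum list cannot be told apart between these sets in CgA-KO/PS19.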

How the results depend on the processing

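Of 432 log2 fold changes of single members under 16 alternative settings, 384 kept their direction and their side of the threshold, 20 passed it newly, 2 no longer passed and 26 changed sign. With each of the 17 libraries left out in turn, 445 of 459 kept both. The call of P2ry13 between CgA-KO/PS19 and WT was lost with only these 2 genotypes in the fit and within the libraries with Ddx3y above 1 CPM, and was kept with every library left out in turn.

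The count of members called is given with the share of all genes called in brackets. Between CgA-KO/PS19 and PS19, 0 in the report (9.72%), it was 1 with DESeq2 (15.2%), with at least 10 counts in every library (14.8%), with only 2 genotypes (13.1%), within the libraries with Ddx3y above 1 CPM (25.0%) and at most 1 CPM (1.72%), with the mitochondrial share as a covariate (0.325%) and with 3 libraries left out together (23.2%), 3 with the striatum covariate (5.57%), 4 with voom (22.7%), and 0 to 1 with each library left out. Between WT and PS19 it was 1 with voom (17.2%) and with the neuron covariate (4.20%) and 3 with the striatum covariate (16.4%), in place of 0 (5.90%). Against WT, CgA-KO/PS19 had 0 with only 2 genotypes (266 of 20459 genes) and 2 with the striatum covariate (21.6%), in place of 1 (6.46%).

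The median of the members between CgA-KO/PS19 and PS19 was -0.57 within the libraries with Ddx3y at most 1 CPM, -0.32 with the striatum, -0.28 with the neuron and -0.43 with the mitochondrial covariate. Between WT and PS19 it was -0.013 with voom, -0.13 within the libraries with Ddx3y at most 1 CPM and -0.18 with the striatum covariate. For CgA-KO/PS19 against WT it was 0.135 with voom, -0.15 within the libraries with Ddx3y above 1 CPM, -0.14 with the striatum covariate and -0.345 to 0.0027 with each library left out, the last without WT replicate 4.

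Signs changed as follows, none with an adjusted p under 0.05 except Gpr34 within a set of libraries. With the striatum covariate, Csf1r (0.053), Tmem119 (0.034) and Siglech (-0.14) changed sign between CgA-KO/PS19 and WT, P2ry13 (-0.095) and Selplg (-0.18) between WT and PS19, and Olfml3 (-0.045) between CgA-KO/PS19 and PS19. Within the libraries with Ddx3y above 1 CPM, so did Csf1r (0.086), P2ry12 (-0.40) and Tmem119 (0.12) between WT and PS19, Cx3cr1 (-0.17), Gpr34 (0.45) and Selplg (0.25) between CgA-KO/PS19 and PS19, and P2ry12 (0.41) and Siglech (-0.020) between CgA-KO/PS19 and WT. Within the others, so did Gpr34 (-0.10) between CgA-KO/PS19 and WT, Olfml3 (-0.090) between CgA-KO/PS19 and PS19, and Selplg (-0.13) between WT and PS19. Voom changed Cx3cr1 (0.135) and P2ry12 (0.38) between CgA-KO/PS19 and WT and P2ry12 (-0.013) between WT and PS19. Gpr34 changed to 0.012 between CgA-KO/PS19 and PS19 with at least 10 counts and to -0.14 between CgA-KO/PS19 and WT with the mitochondrial covariate, which also took P2ry12 to -0.12 between CgA-KO/PS19 and PS19. With 3 libraries left out together, Csf1r was 0.010 between WT and PS19 and Gpr34 0.097 between CgA-KO/PS19 and PS19. With 1 library left out in turn, Csf1r ran from -0.15 to 0.017 between WT and PS19, Cx3cr1 from -0.094 to 1.24 and Gpr34 from -0.18 to 0.021 between CgA-KO/PS19 and PS19, and Cx3cr1 from -1.03 to 0.038, P2ry12 from -0.71 to 0.057 and Siglech from -0.125 to 0.32 between CgA-KO/PS19 and WT. The causes were not tested.

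The replicate block took Olfml3 to -0.010 between CgA-KO/PS19 and PS19 and changed no call of a member. It moved the genes called from 1361 to 660, 2242 to 654 and 1489 to 614. The numbers did not pair the libraries: the correlation of deviations exceeded 0.1 in 2 of 16 same-numbered pairs (-0.23 to 0.44), and 3 of 17 libraries correlated best with their own number. Over all settings without a library left out singly, the genes called ran from 278 to 3967 for WT against PS19, 75 to 5770 for CgA-KO/PS19 against PS19 and 253 to 4974 for CgA-KO/PS19 against WT, and from 632 to 1658, 1019 to 3822 and 627 to 2099 with each library left out.

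The striatum list separates WT from PS19, so its covariate and the genotype are partly the same term. Siglech, with 39 counts in WT replicate 4, had the lowest mean level of the 9, and depth limits its values there.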
